A study of Mus musculus with 31 samples.

Results

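Stem-like cultures of 8 mouse medulloblastomas were compared with neural stem cells (NSC) of the subventricular zone (SVZ), a forebrain niche, to ask which differences came with the brain region and which with the tumour. Those 8 lines and 3 SVZ cultures make up 11 of the 31 arrays of the study, which also holds NSC of the IV ventricle region (3 cultures) and of the cerebellar white matter (3 cultures), 8 matched tumour tissues and 6 arrays of 2 further tumour cultures. The members were chosen by array title alone. The lines came from Ptch het p53 wt mice of the C57BL/6 strain, that is, mice with 1 altered copy of Ptch and intact p53, and are numbered here by tumour (74, 91, 92, 9, 49, 68, 77 and 83), 1 culture and 1 array per tumour. All NSC were taken at postnatal day 7 and are given as biological replicates, and no altered allele is named for them. The 2 further tumours, 27 and B, were Ptch het p53 het, with 3 technical replicate arrays each. All cultures grew as neurospheres, free-floating aggregates, with the growth factors EGF and FGF2, which the controls therefore share with the tumour lines. The age at which tumours were taken is not given in the sources used here.

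Medulloblastomas arise in the cerebellum, and loss of Ptch1, the receptor that holds Sonic hedgehog (Shh) signalling in check, is a well known route to it. NSC of the forebrain and of the hindbrain keep much of the positional code of their origin in culture, so a tumour culture set against SVZ cells differs from them both in origin and in being a tumour. IV ventricle and cerebellar NSC, both of the hindbrain, were added to show which of the differences normal hindbrain cells also had. Values are log2 expression (1 unit is a 2-fold change). Differences are given as the limma estimate ± SE, and a gene is said to have risen or fallen where its p, adjusted over 18194 genes, was under 0.05.

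The 11 arrays had medians of 3.17 to 3.25 and correlated at 0.969 to 0.995 over all genes. The number of arrays limits the precision. Cultures are bulk samples, so fewer cells of a type and less RNA per cell cannot be told apart. The cells carried Sox2, a transcription factor of neural stem cells, at 10.03 ± 0.25 (SD, n = 8) in the lines and 9.86 ± 0.08 (SD, n = 3) in SVZ NSC, and Vim, the intermediate filament vimentin, at 11.90 ± 0.24 (SD, n = 8) and 12.13 ± 0.03 (SD, n = 3). The list of 22 neural stem and radial glia genes had a lower mean in the lines, at 6.53 to 7.43 against 7.44 to 7.50 in SVZ NSC, so that the ranges met without overlapping. Atoh1, the transcription factor of granule neuron progenitors, read 1.98 to 2.77 in the lines and 2.23 to 2.40 in SVZ NSC, but 7.45 to 8.53 in the tumour tissues. Genes of the Y chromosome read 0.72 to 1.67 in the 19 arrays without Y signal, a guide to the level of a gene that is not expressed. For a group mean under that guide only a bound is printed ("at least"), the other mean minus the top of the guide. Lines 92 and 68 and SVZ replicate 2 carried Y signal without Xist, the X-inactivation RNA, and SVZ replicate 3 carried both (Xist at 7.50). Line 91 carried neither, with Xist at 3.28 and Eif2s3y at 0.90. The sample names carry date marks, 1 for lines 74, 91, 92 and 9 and another for 49, 68, 77 and 83. No mark holds both lines and NSC of any region. Date and group therefore cannot be told apart where lines are compared with SVZ NSC or with hindbrain NSC. Most hindbrain NSC share a mark with SVZ NSC.

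Of 18194 genes, 1064 (5.85%) differed between the lines and SVZ NSC, 376 (2.07%) higher and 688 (3.78%) lower in the lines, and 406 of them by at least 2-fold. The ranges of lines and SVZ NSC did not overlap for 917 of the 1064, and for 1771 (9.73%) of all genes. At an unadjusted p under 0.05, 3620 genes (19.9%) differed and 1966 (10.8%) were lower in the lines, which is the background for the unadjusted counts given with the gene lists. Fewer genes differed between the normal regions: hindbrain NSC (IV ventricle and cerebellar means averaged) differed from SVZ NSC in 100 genes (0.55%), or in 435 (2.39%) with the replicate number as a block. The block was tried because SVZ NSC varied together with hindbrain NSC of the same number. IV ventricle and cerebellar NSC of the same number did not do so throughout (the check is given with the processing). Leaving out an SVZ culture moved the first count most, to 399, 323 and 704 without replicates 1, 2 and 3. With the lines of 1 date mark at a time set against the same 3 SVZ cultures, 1586 genes differed for the 4 lines of the first and 708 for the 4 of the second. Date was not held constant there, since SVZ NSC share neither mark. Lines differed from hindbrain NSC in 1740 genes (9.56%), 638 higher and 1102 lower, a split of 788 and 849 after each array was centred on its median. The 3 comparisons share cultures in pairs, so their values are set side by side and are not independent of each other.

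Each of the 1064 genes was placed by these 3 comparisons. A gene was called regional where lines and hindbrain NSC both differed from SVZ NSC in the same direction and lines did not differ from hindbrain NSC (59 genes, 29 higher and 30 lower). It was called a tumour-line gene where the lines differed in the same direction from both SVZ and hindbrain NSC and the normal regions did not differ (598 genes, 179 higher and 419 lower). Date marks also separate the lines from all NSC, so tumour and date cannot be told apart in the tumour-line genes. In 13 genes all 3 comparisons passed in step, so that hindbrain NSC lay between SVZ NSC and the lines. In 5 genes the lines lay between SVZ and hindbrain NSC, differing from both. A further 388 could not be placed, because only the comparison of lines with SVZ NSC passed. Sel1l3 alone (chosen after its values were seen) rose by 2.32 in hindbrain NSC and fell by 1.40 in the lines. Placement depends on the power of the regional comparison. With that comparison fitted on the NSC arrays alone and with the replicate block, 139 genes were regional, 578 tumour-line genes and 309 unplaced. The change of arrays and the block were not separated in these counts. Without SVZ replicate 1, 2 and 3 there were 28, 25 and 38 regional genes and 268, 217 and 460 tumour-line genes.

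**Figure D1:**
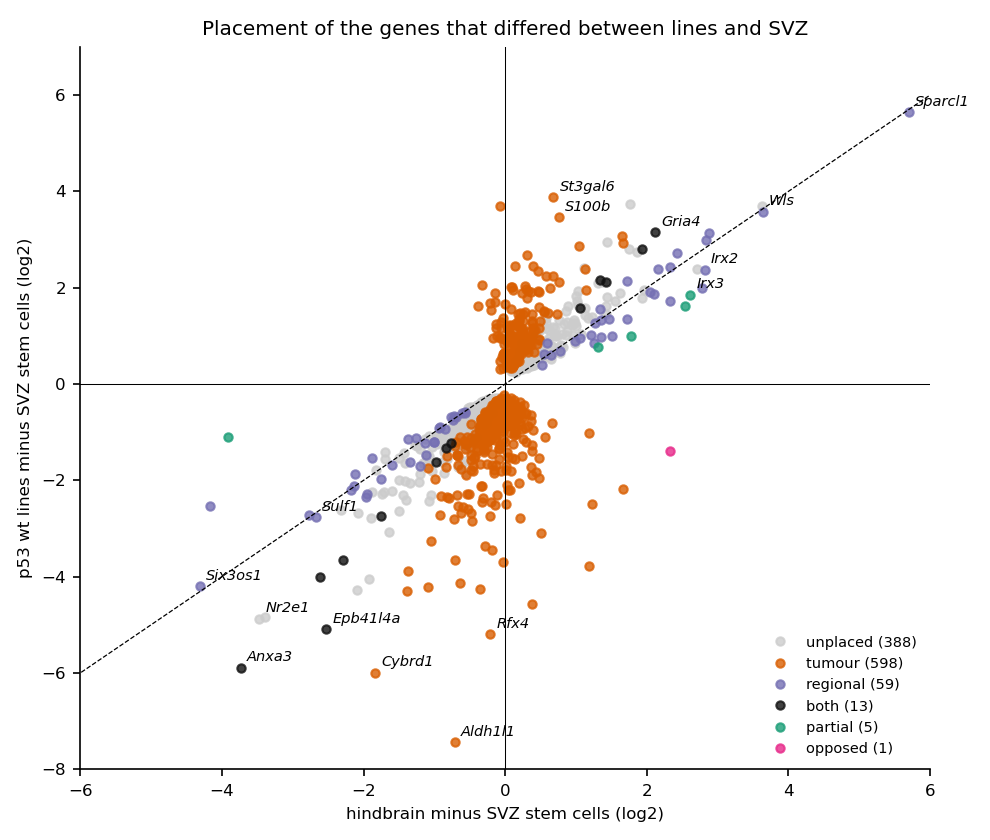
Log2 difference of the 8 lines from SVZ NSC (vertical) against that of hindbrain NSC from SVZ NSC (horizontal) for the 1064 genes that differed between lines and SVZ NSC, 1 point per gene, coloured by placement (both, all 3 comparisons in step; partial, lines between the regions; opposed, Sel1l3), with the dashed line marking equal differences. Both axes subtract the same 3 SVZ cultures; regional genes such as Sparcl1 and Six3os1 lie near the dashed line, and tumour-line genes such as Aldh1l1 and Rfx4 lie near the vertical axis.

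Several forebrain patterning genes were lower in the lines than in SVZ NSC. Six3, a homeobox gene of the anterior forebrain, read 5.99, 6.44 and 5.21 in SVZ NSC, 2.82 to 3.49 in the lines (median 3.14) and 2.91 to 3.37 in hindbrain NSC. No hindbrain culture reached the lowest SVZ value. Six3 fell by 2.72 ± 0.19 in the lines (adjusted p = 1.77e-07), and the lines differed from hindbrain NSC by 0.05 (95% interval -0.26 to 0.37). Six3os1, transcribed from the opposite strand beside Six3, read 5.38, 5.38 and 5.55 in SVZ NSC and 1.04 to 1.43 in the lines, at the level of a gene that is not expressed. The lines lay at least 3.77 under SVZ NSC for it (adjusted p = 2.21e-15). It read 1.01 to 1.30 in hindbrain NSC and 1.15 to 1.34 in tumour tissue.

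Both genes moved together, and their start regions are shown because they lie next to each other on chromosome 17, on opposite strands, with 1937 bases between the windows. The sequences are RefSeq windows (GRCm38.p6) from 250 bases before to 50 after each start, chr17:85620584-85620883 (plus strand) for Six3 and chr17:85618347-85618646 (minus strand) for Six3os1, with CG dinucleotides, the usual sites of DNA methylation, in capitals.
Six3: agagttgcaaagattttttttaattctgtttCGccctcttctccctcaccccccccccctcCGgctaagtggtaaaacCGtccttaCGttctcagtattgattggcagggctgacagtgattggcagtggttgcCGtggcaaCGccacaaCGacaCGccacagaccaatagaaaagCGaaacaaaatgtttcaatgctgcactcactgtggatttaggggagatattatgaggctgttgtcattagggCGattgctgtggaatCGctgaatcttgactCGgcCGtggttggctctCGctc
Six3os1: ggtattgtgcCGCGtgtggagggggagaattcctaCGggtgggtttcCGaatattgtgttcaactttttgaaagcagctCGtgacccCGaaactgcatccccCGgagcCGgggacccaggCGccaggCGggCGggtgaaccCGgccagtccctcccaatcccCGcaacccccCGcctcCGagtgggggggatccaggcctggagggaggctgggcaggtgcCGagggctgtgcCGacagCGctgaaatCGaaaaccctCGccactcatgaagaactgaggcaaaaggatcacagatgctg
Six3 has 14 CG dinucleotides in this window and Six3os1 20, against a median of 17 over the 14453 measured genes with a window. The CG motif was counted as a description, and DNA methylation was not analysed here.

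Emx2, a homeobox gene of the developing cortex, varied among the lines. It read 5.91, 6.10 and 6.06 in SVZ NSC, 1.79, 1.70 and 1.55 in lines 74, 91 and 77, and 3.99 to 5.44 in lines 92, 9, 49, 68 and 83, whereas 5 of the 6 hindbrain cultures lay between 1.36 and 1.90 and the remaining culture at 3.12. It was lower in the lines by 2.54 ± 0.73 (adjusted p = 0.0485), a call lost in 13 of 17 leave-one-out fits, the 3 that left out an SVZ culture among them. Emx2 was placed as regional because the comparison of lines with hindbrain NSC did not pass, although lines 92, 9, 49, 68 and 83 lay above every hindbrain culture. Lhx2, which acts in cortex and eye formation, read 5.18 to 6.13 in the lines, between SVZ NSC (6.95, 7.32 and 6.16) and hindbrain NSC (2.10 to 3.60). Its fall of 1.09 ± 0.31 from SVZ NSC (adjusted p = 0.049) was lost in 11 of 17 leave-one-out fits, while its excess over hindbrain NSC was 2.82 (adjusted p = 6.67e-06). Nr2e1, the nuclear receptor Tlx that maintains forebrain stem cells, read 6.86, 6.61 and 6.10 in SVZ NSC and 0.96 to 2.00 in 7 lines, with line 49 at 3.71. It was lower in the lines by at least 4.86 (adjusted p = 9.12e-04). Hindbrain NSC spread from 1.19 to 4.69, and neither comparison with them passed (adjusted p = 0.0533 and 0.162), so Nr2e1 was not placed.

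Of 24 measured forebrain patterning genes, 7 fell and 1 rose in the lines relative to SVZ NSC, with a list median of -0.03 against 0.03 over all genes. Sp8, a zinc finger factor of the forebrain, was lower by at least 0.39 (adjusted p = 0.00244), with SVZ NSC themselves at 1.60 to 2.59. The others that fell were Six3, Emx2, Lhx2, Nr2e1, Gsx1, a homeobox gene of the ventral forebrain (adjusted p = 0.0187, lost without SVZ replicate 2 or 3), and Meis2, described with the tumour-line genes. The member that rose, Nr2f1 (COUP-TFI), encodes a nuclear receptor that patterns the cortex and is also made in the hindbrain. It gained 0.89 ± 0.15 (adjusted p = 0.00226), to 8.16 ± 0.25 (SD, n = 8), beside 8.26 ± 0.22 (SD, n = 6) in hindbrain NSC. The count of 7 that fell dropped to 4 without SVZ replicate 1 or 3 and to 3 without SVZ replicate 2.

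Of the Iroquois homeobox genes, which take part in patterning the midbrain and hindbrain, 4 of 6 rose (Irx1, Irx2, Irx3 and Irx5), while Irx4 and Irx6 did not pass (adjusted p = 0.843 and 0.924). Irx2 read 2.16, 2.82 and 3.50 in SVZ NSC and 4.91 to 5.62 in the lines, a rise of 2.38 ± 0.22 (adjusted p = 1.02e-05). Irx2 was placed as regional, with the lines lower than hindbrain NSC by 0.44 (95% interval -0.82 to -0.07, adjusted p = 0.137). Irx3 rose by 1.85 ± 0.21 (adjusted p = 7.36e-05) and Irx5 by 1.62 ± 0.30 (adjusted p = 0.00342), and both stayed below hindbrain NSC, by 0.76 and 0.91 (adjusted p = 0.00779 and 0.0214). Irx1 rose by 2.12 ± 0.30 (adjusted p = 4.58e-04), to a mean of 5.61 in the lines against 4.87 in hindbrain NSC, and could not be placed. In each of the 4 that rose the highest of the 3 SVZ values was that of replicate 3.

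Of 18 measured midbrain-hindbrain patterning genes, 5 rose and 1 fell, with a list median of 0.22. Gbx2, which sets the anterior limit of the hindbrain, read 1.49, 1.69 and 1.55 in SVZ NSC and 1.87 to 3.07 in the lines, higher by at least 0.90 (adjusted p = 0.023, lost without any 1 SVZ culture), and was regional. Otx2, which marks forebrain and midbrain territory up to the Gbx2 border, fell: SVZ NSC read 4.23, 4.63 and 4.92 and 7 lines 1.21 to 1.86, but line 77 read 4.20. Otx2 was placed as a tumour-line gene (fall of 2.84 ± 0.76, adjusted p = 0.035), although hindbrain NSC themselves ranged from 1.72 to 6.44. Its call was lost in 8 of 17 leave-one-out fits, those without an SVZ culture among them. It was also lost with the date mark as a random block and with the second date mark of the lines alone. Of 16 measured Hox genes, the positional code of the hindbrain and cord, Hoxa3 and Hoxa5 rose and none fell. Hoxa3 read 1.81, 1.86 and 2.60 in SVZ NSC and spread over 2.55 to 6.62 in the lines (rise of 2.95 ± 0.73, adjusted p = 0.024). The call for Hoxa3, like that for Hoxa5 (1.01 ± 0.25, adjusted p = 0.0248), was lost without any 1 SVZ culture. The highest Hoxa3 values were those of lines 91, 92 and 9, at 6.62, 6.40 and 6.16, the lines in which chromosome 6, which carries Hoxa3, was raised as a whole (see the chromosome medians), and the part of that in the result was not tested.

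Beyond transcription factors, the largest regional rise was that of Sparcl1, a secreted matrix glycoprotein made by astrocytes. It read 4.02, 3.02 and 3.34 in SVZ NSC, 8.62 to 10.11 in 7 lines and 5.88 in line 49. Genes named for the size of their difference were taken only from those in which lines and SVZ NSC do not overlap, so that lack of overlap is not a result. The rise of Sparcl1 was 5.65 ± 0.69 (adjusted p = 1.32e-04), and hindbrain NSC read 8.19 to 9.92. Wls, a membrane protein needed for Wnt secretion, read 2.47, 3.15 and 5.15 in SVZ NSC and 6.46 to 7.55 in the lines, a rise of 3.58 ± 0.40 (adjusted p = 7.29e-05). The lines differed from hindbrain NSC in Wls by -0.05 (95% interval -0.72 to 0.62). Chl1, a cell adhesion molecule of neurons and glia, rose by 2.99 ± 0.23 (adjusted p = 7.13e-07), from 5.77 to 6.41 in SVZ NSC to 8.40 to 9.37 in the lines. Vcan, the proteoglycan versican, rose by 2.39 ± 0.43 (adjusted p = 0.00295), Clic5, a chloride intracellular channel protein, by 3.15 ± 0.56 (adjusted p = 0.00299), Rbms1, an RNA-binding protein, by 2.43 ± 0.42 (adjusted p = 0.00238) and Adamtsl3, a secreted protein of the ADAMTS-like family, by 2.71 ± 0.35 (adjusted p = 2.47e-04).

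In the other direction Sulf1, an extracellular enzyme that trims sulfate from heparan sulfate and so tunes growth factor binding, read 4.10, 4.70 and 4.12 in SVZ NSC and 1.38 to 1.71 in the lines. It was lower by at least 2.64 (adjusted p = 3.76e-09), and hindbrain NSC read 1.37 to 2.13, over the same range as the lines. Emp1, a membrane protein, fell by 2.35 ± 0.40 (adjusted p = 0.00216) and Slc12a7, a potassium-chloride cotransporter, by 2.28 ± 0.40 (adjusted p = 0.00264). Line 49 kept Slc12a7 at 4.81, against 2.51 to 3.10 in the other 7 lines and 5.18 to 5.30 in SVZ NSC. Of these regional genes, Six3, Six3os1, Sulf1, Sparcl1, Wls, Chl1, Adamtsl3 and Irx2 kept their placement in all 17 leave-one-out fits. Clic5, Vcan, Rbms1, Emp1 and Slc12a7 lost theirs in 4 to 14 of the 17. With the mean of all probe sets per gene, Clic5, Vcan, Emp1 and Slc12a7 did not differ between hindbrain and SVZ NSC and so were not regional.

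**Figure D2:**
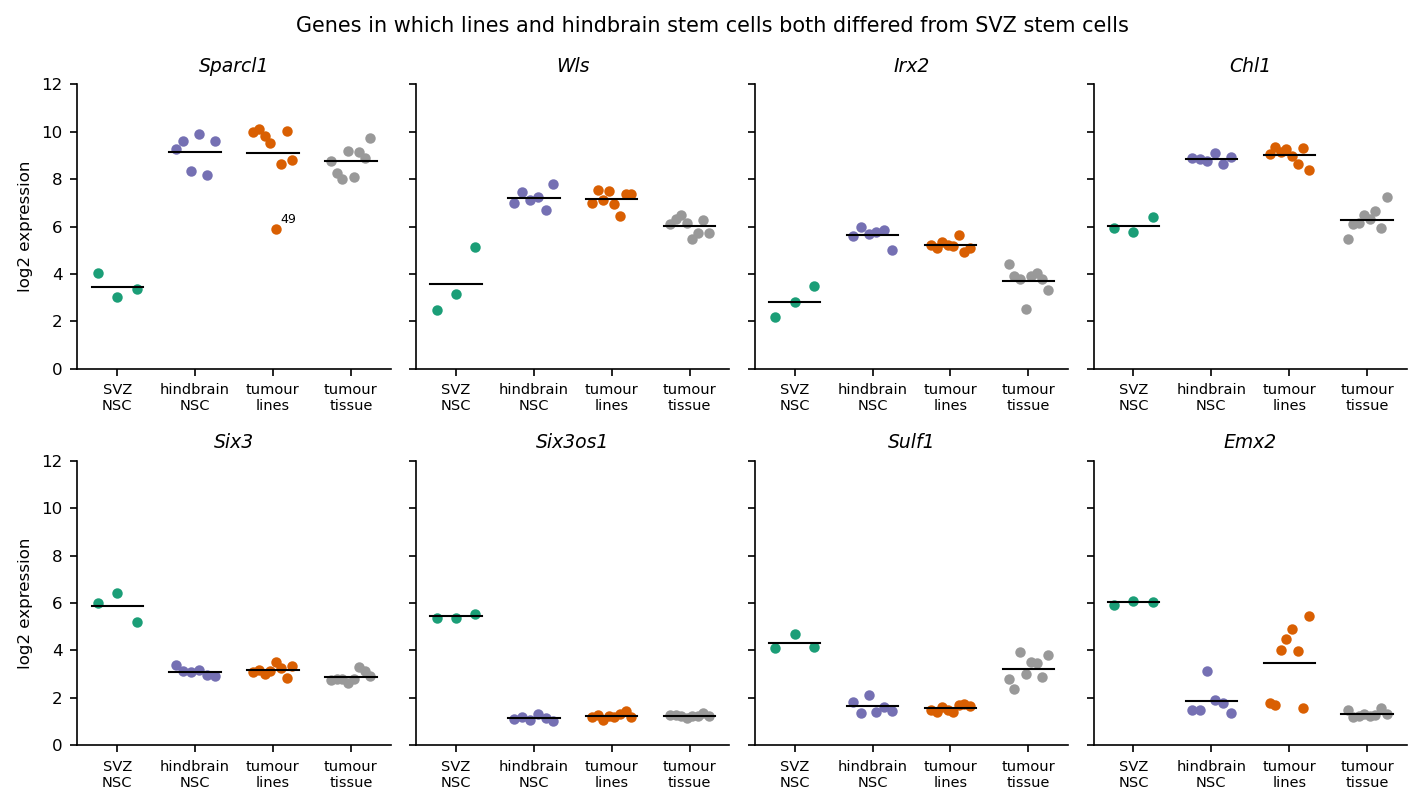
Log2 expression of 8 regional genes in SVZ NSC (3 cultures), hindbrain NSC (6), the p53 wild-type lines (8) and the matched tumour tissues (8), 1 point per array with the group mean as a bar. In Sparcl1, Wls, Irx2 and Chl1 every line lies above the 3 SVZ values, with line 49 lowest in Sparcl1 at 5.88, and in Six3, Six3os1 and Sulf1 every line lies below them, whereas the lines spread from 1.55 to 5.44 in Emx2. Emx2 is regional by the rule, although several lines lie above every hindbrain culture. Genes named for the size of their difference were chosen for lack of overlap between lines and SVZ NSC.

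A wider view used 311 genes that differed between hindbrain and SVZ NSC when the 9 NSC arrays were fitted alone, so that the lines had no part in choosing them. Each array was asked on how many of these genes it lay nearer the hindbrain than the SVZ mean. The mean of the lines lay nearer the hindbrain for 239 genes (76.8%), and beyond the hindbrain mean for 121 of them. All 8 lines lay on the hindbrain side for 81 genes and all 8 on the SVZ side for 17. Taken singly, 7 lines lay on the hindbrain side for 67.5% to 73.95% of the genes, and line 49 for 53.1%. Their median positions, with 0 at the SVZ and 1 at the hindbrain mean, were 0.86 to 1.05 in the 7 lines and 0.55 in line 49. Cultures of tumours 27 and B lay on the hindbrain side for 52.7% to 56.3% and the tumour tissues for 52.1% to 54.7%. With each NSC culture left out of the choice of genes in turn, the share for the mean of the lines was 70.0% to 83.7%. The SVZ and hindbrain means were still taken over all 9 NSC arrays there.

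**Figure D3:**
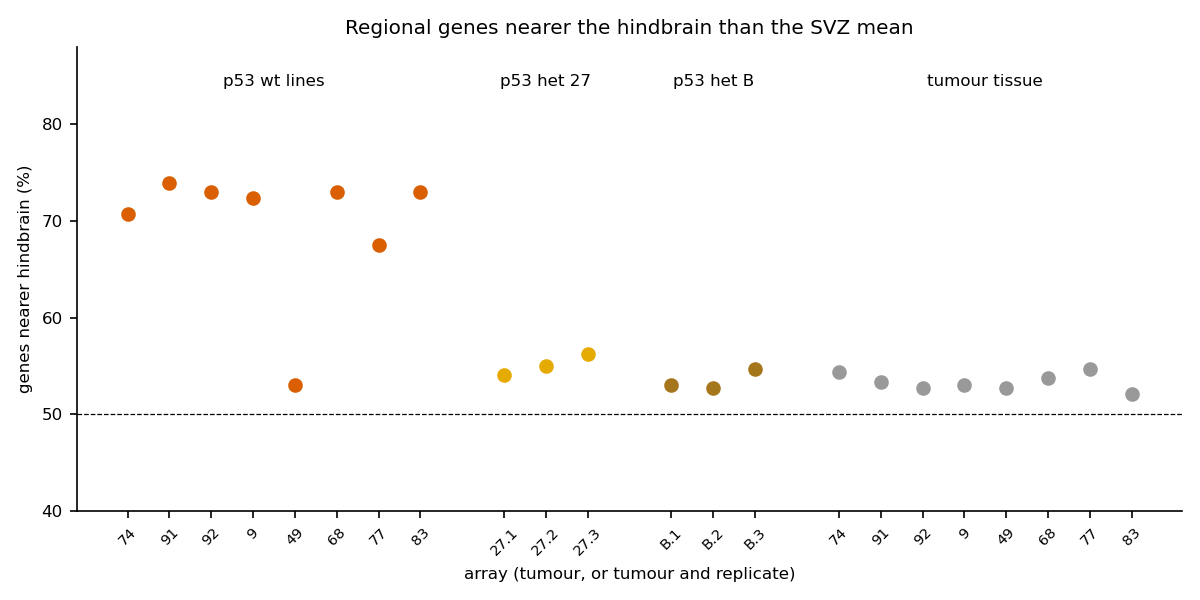
Share of 311 genes, chosen on the 9 NSC arrays alone, for which an array lay nearer the hindbrain than the SVZ mean, 1 point per array, for the 8 p53 wild-type lines, 3 technical replicates each of the p53 het tumours 27 and B, and the 8 tumour tissues, with a dashed line at 50%. Of the lines, 7 sit between 67.5% and 73.95%, and line 49, at 53.1%, sits among the p53 het and tissue arrays. The dashed line is not the share of an array without a regional identity, which was not computed.

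The largest of the 1064 differences from SVZ NSC was that of a tumour-line gene. Aldh1l1, a folate enzyme widely used as an astrocyte marker, read 10.31, 10.15 and 10.12 in SVZ NSC and 2.21 to 3.97 in the lines (median 2.51), a fall of 7.44 ± 0.34 (adjusted p = 6.12e-10), or 174-fold. Hindbrain NSC kept it at 8.73 to 10.34, above all 8 lines, and the tumour tissues read 3.90 to 6.43. Over the settings the difference of the lines from SVZ NSC in Aldh1l1 ranged from -7.81 to -5.36, and 174-fold is its size with 1 probe set per gene. Aqp4, the water channel of astrocytes, read 4.67, 4.06 and 4.78 in SVZ NSC and 1.74 to 2.03 in the lines (fall of 2.68 ± 0.43, adjusted p = 0.00139), but 6.35 to 9.42 in tumour tissue. The astrocyte list did not fall as a whole: of 20 measured members 2 fell (Aldh1l1 and Aqp4) and 2 rose, with a median of 0.01. Those that rose were Sparcl1, described above, and S100b, a calcium-binding protein of glia. S100b read 4.32, 3.01 and 4.37 in SVZ NSC and 6.88 to 8.11 in 7 lines, with line 68 at 5.44, a rise of 3.46 ± 0.55 (adjusted p = 0.00116). Hindbrain NSC read 3.56 to 5.94 for S100b, below 7 of the 8 lines.

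Several other losses were uneven among the lines. Rfx4, a transcription factor of neural progenitors that acts in ciliated cell and dorsal brain development, read 7.74 to 7.83 in SVZ NSC and 7.06 to 7.97 in hindbrain NSC. Lines 74, 91, 92, 9 and 49 read 0.60 to 1.40, at the level of a gene that is not expressed, whereas lines 68, 77 and 83 read 5.27, 5.70 and 4.98. Its fall was 5.20 ± 1.01 (adjusted p = 0.00538). Bex2, a small X-linked protein abundant in brain, read 2.51 to 4.62 in 6 lines but 8.92 and 8.41 in lines 68 and 83, near its SVZ values of 9.13 to 9.49 (fall of 4.56 ± 1.14, adjusted p = 0.0245). Meis2, a homeobox partner of Hox and Pax proteins, was likewise kept in lines 68 and 83 (6.81 and 6.55), stood at 4.84 in line 91 and read 1.62 to 2.34 in the other 5 (fall of 4.26 ± 0.98, adjusted p = 0.0156). The calls for Bex2 and Meis2 were lost without any 1 SVZ culture. Lines 49, 68, 77 and 83 share a date mark. With the lines of the first and of the second mark alone against the same SVZ cultures, the fall of Rfx4 was at least 6.11 and 3.44 (adjusted p = 1.92e-09 and 0.0274), that of Bex2 5.97 and 3.16 (adjusted p = 1.18e-06 and 0.14) and that of Meis2 5.12 and 3.40 (adjusted p = 1.66e-04 and 0.0807).

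The start regions of Aldh1l1, lost in all 8 lines, and of Rfx4, lost in 5 and kept in part in 3, are given as the clearest cases of uniform and uneven loss (RefSeq, GRCm38.p6, CG in capitals). They lie at chr6:90550543-90550842 and, for the first of 2 listed starts of Rfx4, at chr10:84755798-84756097, both on the plus strand.
Aldh1l1: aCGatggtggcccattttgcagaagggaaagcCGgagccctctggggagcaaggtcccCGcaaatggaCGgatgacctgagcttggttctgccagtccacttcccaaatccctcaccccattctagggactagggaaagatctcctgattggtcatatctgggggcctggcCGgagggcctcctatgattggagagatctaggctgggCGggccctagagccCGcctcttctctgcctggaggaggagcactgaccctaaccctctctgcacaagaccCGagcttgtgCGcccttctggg
Rfx4: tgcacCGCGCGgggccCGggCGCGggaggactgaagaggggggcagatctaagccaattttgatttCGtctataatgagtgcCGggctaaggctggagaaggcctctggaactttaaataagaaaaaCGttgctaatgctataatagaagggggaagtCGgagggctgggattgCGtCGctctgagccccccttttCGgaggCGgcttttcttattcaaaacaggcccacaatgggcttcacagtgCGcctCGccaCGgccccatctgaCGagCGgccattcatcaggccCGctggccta
Aldh1l1 has 9 CG dinucleotides here, more than 30.7% of measured genes with a window, and Rfx4 has 20, more than 57.1%. The median was 22 for the 360 tumour-line genes that fell and have a window and 16 for the 135 that rose. Over regional genes it was 17 for 24 that fell and 19 for 23 that rose.

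Cybrd1, a ferric reductase of the cell membrane, read 9.39 to 9.53 in SVZ NSC and 2.02 to 3.24 in 6 lines, with line 77 at 5.11 and line 68 at 7.98 (fall of 6.00 ± 1.06, adjusted p = 0.00271). Fam181a fell in every line, from 6.58 to 6.97 in SVZ NSC to 2.06 to 3.75 (adjusted p = 1.23e-06). Among the rises, St3gal6, a sialyltransferase, read 4.23 to 5.04 in SVZ NSC, 3.90 to 6.56 in hindbrain NSC and 6.97 to 9.64 in the lines (rise of 3.88 ± 0.55, adjusted p = 4.79e-04). It read 8.57 and 8.32 in tumours 27 and B but 3.70 to 4.91 in tumour tissue, below every culture of a tumour. Prm1, a protamine that packs sperm DNA, lay at 0.76 to 1.23 in all 9 NSC arrays and at 2.88 to 5.81 in the lines, a rise of at least 3.04 (adjusted p = 1.29e-04). Tumour tissue read 6.76 to 8.43 for Prm1. Its probe set is of the _x_at type, which may also bind other transcripts. Edil3, an integrin-binding matrix protein, rose by 3.07 ± 0.48 (adjusted p = 0.00116), Adamts5, an enzyme that cleaves aggrecan and versican, by 2.87 ± 0.41 (adjusted p = 5.66e-04) and Casp12, a caspase of the endoplasmic reticulum, by 2.93 ± 0.43 (adjusted p = 7.36e-04). With the replicate block Edil3 also differed between hindbrain and SVZ NSC (adjusted p = 0.00682), and Casp12 and Edil3 kept their placement in 10 and 11 of 17 leave-one-out fits.

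**Figure D4:**
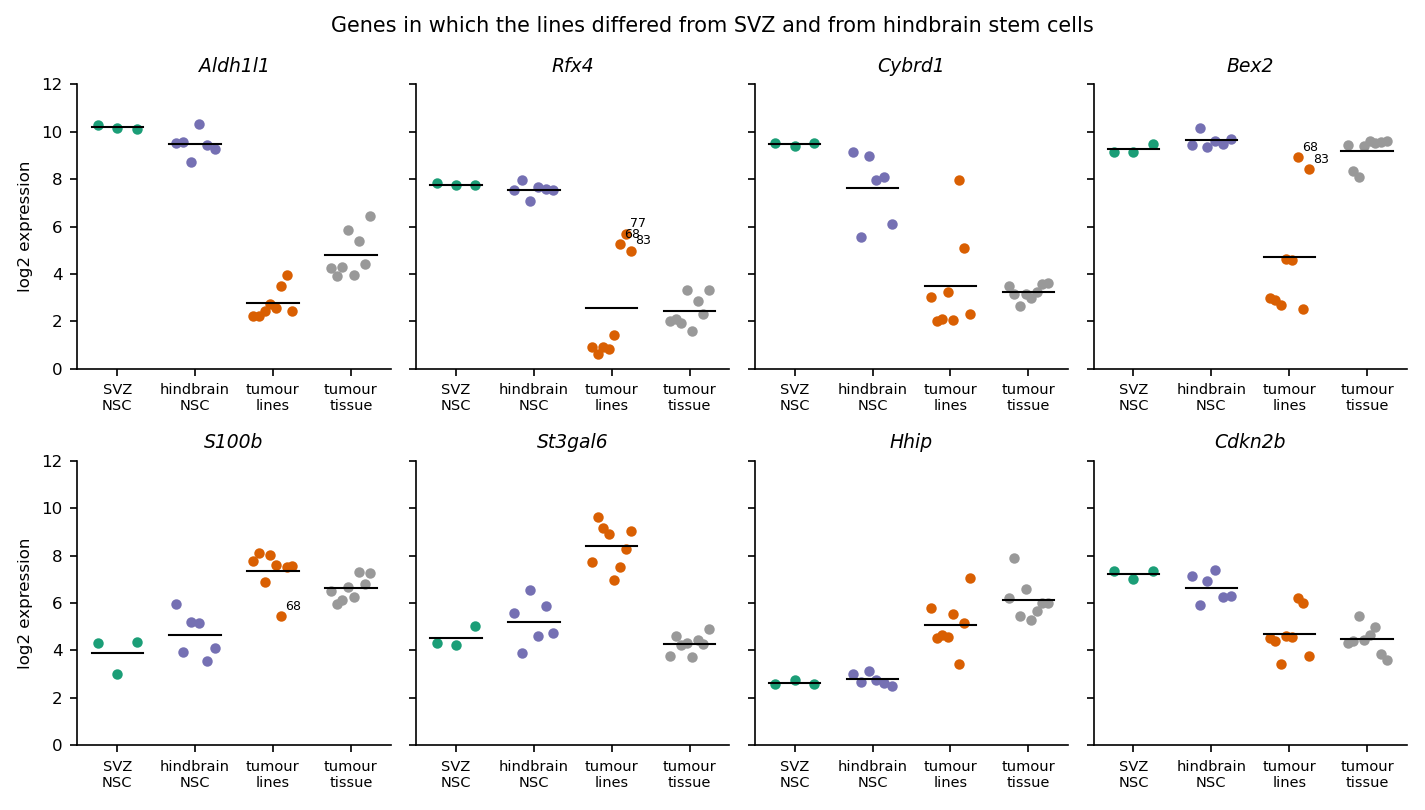
Log2 expression of 8 tumour-line genes in SVZ NSC (3 cultures), hindbrain NSC (6), the p53 wild-type lines (8) and the matched tumour tissues (8), 1 point per array with the group mean as a bar; numbers name single lines. Aldh1l1 is low in all 8 lines (2.21 to 3.97), Rfx4 is kept at 4.98 to 5.70 in lines 68, 77 and 83, Bex2 at 8.41 and 8.92 in lines 83 and 68, and S100b, St3gal6 and Hhip are higher in the lines.

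The Shh pathway did not move as a block. Hhip, which binds hedgehog ligands at the cell surface and is itself a target of the pathway, read 2.59, 2.74 and 2.59 in SVZ NSC, 2.49 to 3.11 in hindbrain NSC and 3.42 to 7.07 in the lines, all above every normal culture (rise of 2.45 ± 0.48, adjusted p = 0.0056). It read 5.26 to 7.91 in tumour tissue. Ptch1, the altered gene and also a target, read 8.18, 8.03 and 8.30 in SVZ NSC and 5.72 to 7.75 in the lines (fall of 1.54 ± 0.40, adjusted p = 0.0307). Whether the Ptch1 probes fall in the altered portion is not known here, so the value does not check the genotype, and Trp53 was not measured by a probe set with a single symbol. The call for Ptch1 was lost without line 9 and without any 1 SVZ culture. It was also lost with the mean of all its probe sets, with the date mark as a random block and with the second date mark of the lines alone. Over the settings the Ptch1 difference ranged from -1.80 to -0.80. Gli1, the transcription factor that reports pathway activity, stood at 2.09 ± 0.25 (SD, n = 8) in the lines and 1.88 ± 0.30 (SD, n = 3) in SVZ NSC (adjusted p = 0.496), with both groups close to the guide for unexpressed genes, against 6.50 to 7.69 in tumour tissue.

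Of 21 measured Shh pathway genes, 2 rose (Hhip and the Polycomb gene Bmi1, by 0.64 ± 0.16, adjusted p = 0.0281, lost without SVZ replicate 1 or 2) and 4 fell, with a median of -0.06. Besides Ptch1, those that fell were Gli2, a transcriptional effector (1.53 ± 0.38, adjusted p = 0.0237), Mycn, a growth-promoting target in granule progenitors (1.21 ± 0.20, adjusted p = 0.00144), and Cdon, a co-receptor (2.30 ± 0.55, adjusted p = 0.0206, lost without any 1 SVZ culture). Gli2 and Mycn were regional: they read 3.30 to 5.08 and 2.31 to 2.86 in hindbrain NSC and 3.87 to 5.66 and 1.93 to 3.08 in the lines. Lines differed from hindbrain NSC by 0.35 (95% interval -0.28 to 0.99) in Gli2 and by -0.21 (95% interval -0.54 to 0.12) in Mycn, whose placement held in 9 of 17 leave-one-out fits. With the mean of all probe sets Mycn did not differ between hindbrain and SVZ NSC. Mycn read 8.86 to 9.62 in tumour tissue, above every culture. With the replicate block Gli2 did not differ between hindbrain and SVZ NSC (adjusted p = 0.0688), and it lost its call without any 1 SVZ culture. The list's counts were 1 and 1 without SVZ replicate 1 or 2.

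In the Wnt pathway 2 of 29 measured genes rose and 4 fell (median 0.07). Wls, described above, and the receptor Fzd9 (1.32 ± 0.35, adjusted p = 0.036, lost in 9 of 17 leave-one-out fits) rose. Wnt5a, a ligand of the non-canonical branch, fell by 1.79 ± 0.23 (adjusted p = 2.47e-04), from 5.98 to 6.76 in SVZ NSC to 4.28 to 5.19 in the lines, and Znrf3, a ubiquitin ligase that removes Wnt receptors, by 1.21 ± 0.15 (adjusted p = 2.05e-04). Both were tumour-line genes, and Fzd5, a receptor, fell by 1.04 ± 0.19 (adjusted p = 0.00361) and was unplaced. Fzd8, a further receptor, was the other member that fell (adjusted p = 0.0324, lost in 5 of 17 leave-one-out fits). In the Notch pathway 3 of 21 genes fell and none rose, with a median of -0.24. Lfng, which adds sugars to Notch receptors, read 8.10 to 8.22 in SVZ NSC, 7.80 to 8.87 in hindbrain NSC and 5.42 to 6.91 in the lines (fall of 1.79 ± 0.26, adjusted p = 6.14e-04). Hes6, an inhibitor of Hes1 (1.32 ± 0.23, adjusted p = 0.00223), and the ligand Dll1 (1.00 ± 0.27, adjusted p = 0.0342, lost in 5 of 17 leave-one-out fits) fell without placement. Without line 49, which held Dll1 at 7.14, the Notch counts were 1 rising and 5 falling.

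Of 21 growth control and Rb axis genes, 3 fell (Cdkn2b, Cdkn1a and Mycn) and none rose, with a median of -0.15. Cdkn2b, the CDK inhibitor p15, read 7.35, 7.02 and 7.34 in SVZ NSC, 5.91 to 7.39 in hindbrain NSC and 3.41 to 6.23 in the lines (fall of 2.55 ± 0.48, adjusted p = 0.00452). Cdkn1a, the inhibitor p21 and a target of p53, fell by 1.17 ± 0.30 (adjusted p = 0.027), a call lost without SVZ replicate 1 or 2. Pmaip1 (Noxa), a death-promoting target of p53, read 4.59 to 4.99 in SVZ NSC and 1.63 to 3.99 in the lines (fall of 2.28 ± 0.42, adjusted p = 0.00356). Aen, a nuclease induced by p53, fell by 0.81 ± 0.22 (adjusted p = 0.0415), a call lost in 11 of 17 leave-one-out fits. These were the 3 of 24 measured p53 targets that fell, all placed as tumour-line genes, although Aen kept that placement in 3 of 17 leave-one-out fits. The calls for Cdkn1a and Aen were also lost with the date mark as a random block and with the second date mark of the lines alone. Plk2, a kinase and also a target, rose (1.40 ± 0.31, adjusted p = 0.0116, lost without SVZ replicate 1 or 2 and with the second date mark alone). The list median was -0.36, the lowest of the 27 lists, and 9 members were lower at an unadjusted p under 0.05. The count of p53 targets that fell was 7 without line 49 and 1 without SVZ replicate 1 or 2.

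Among proliferation genes, limma called 0 of 19 mitosis genes (3 at an unadjusted p under 0.05), with Mki67 at 10.11 ± 0.17 (SD, n = 8) in the lines and 9.95 ± 0.07 (SD, n = 3) in SVZ NSC (adjusted p = 0.473). Top2a, a topoisomerase of dividing cells, read 9.58 to 10.34 and 9.55 to 9.71 (adjusted p = 0.146). Of 22 DNA replication genes, Ccne1 fell by 0.80 ± 0.16 (adjusted p = 0.00733, lost without SVZ replicate 1 or 2) and none rose. These counts are near the 5.85% called over all genes. Of 22 neural stem and radial glia genes, 3 fell and none rose (median -0.21): Nr2e1, described above, Msi1, an RNA-binding protein of neural progenitors (1.38 ± 0.26, adjusted p = 0.00427), and Fgfr1, a receptor for FGF2 (1.24 ± 0.24, adjusted p = 0.0056, lost without SVZ replicate 2).

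Growth factor genes had 4 members of 27 that rose and 1 that fell. Kit, a receptor tyrosine kinase, read 3.35, 2.82 and 3.97 in SVZ NSC and 5.04 to 7.30 in the lines (rise of 2.75 ± 0.47, adjusted p = 0.00202) but could not be placed, with hindbrain NSC at 4.18 to 6.27. Tgfa, a ligand of the EGF receptor, rose by 1.59 ± 0.29 (adjusted p = 0.00321) as a tumour-line gene. Fgf1, a ligand of FGF receptors, and Ntrk3, the receptor TrkC, also rose (adjusted p = 0.0185 and 0.024, both lost without SVZ replicate 1 or 2, Fgf1 also without 3), and Fgfr1 was the member that fell. Among 24 matrix genes, Sparcl1, Vcan and Col9a1, a cartilage collagen (2.25 ± 0.41, adjusted p = 0.00338), rose and the laminin chain Lamc1 fell (1.32 ± 0.22, adjusted p = 0.00146). Of 13 neural crest and Schwann cell genes, 4 rose and none fell, with the highest list median, 0.42. They were Ets1 (1.34 ± 0.21, adjusted p = 0.00116), Ngfr (0.95 ± 0.19, adjusted p = 0.00642), Gas7 (1.92 ± 0.43, adjusted p = 0.0129) and Mitf (1.07 ± 0.29, adjusted p = 0.0362). Ets1 and Ngfr were regional and Gas7 and Mitf tumour-line genes, and the count was 1 without SVZ replicate 1 or 2. With the mean of all probe sets Ngfr lost its call and its regional difference.

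For other cell types, limma called 0 of 15 endothelial and mural genes (0 at an unadjusted p under 0.05) and 1 of 15 microglial genes, Lyz2, at 2.63 to 2.90 in the lines, 2.30 to 2.53 in SVZ NSC and 10.1 on average in tumour tissue. The list means of the microglial genes were 1.82 to 2.17 in the lines and 1.82 to 1.97 in SVZ NSC. None of 10 Ptf1a-lineage and other cerebellar neuron genes passed (4 at an unadjusted p under 0.05), and 1 of 18 granule neuron genes fell, Zic5 (1.79 ± 0.47, adjusted p = 0.0326). Bcas1, an oligodendrocyte gene, rose by 2.17 ± 0.22 (adjusted p = 3.04e-05), to 9.12 to 9.90 in the lines, the only one of 18 oligodendrocyte genes to pass. Neuronal genes moved both ways, with Nsg2 (1.73 ± 0.34, adjusted p = 0.00559) and Syt1 (1.27 ± 0.32, adjusted p = 0.0275) higher and Elavl3 (1.08 ± 0.23, adjusted p = 0.0103) lower, of 19 measured. The calls for Zic5 and Syt1 were lost without any 1 SVZ culture, that for Lyz2 without any 1 SVZ culture or line 74 or 9, that for Elavl3 without SVZ replicate 1 or 2 and that for Nsg2 without SVZ replicate 2. Of 20 interferon response genes, 1 rose, Ifit2 (1.46 ± 0.24, adjusted p = 0.00154). The mean of that list was 6.03 in line 77 and 3.16 to 3.52 in the other 7 lines, against 2.99 to 3.21 in SVZ NSC. In antigen presentation B2m, the light chain of class I molecules, rose by 1.27 ± 0.31 (adjusted p = 0.0223) and the heavy chain gene H2-K1 fell by 1.73 ± 0.49 (adjusted p = 0.0457), with line 49 lowest at 3.84, line 77 (7.47) inside the SVZ range of 7.44 to 7.89, and a probe set of the _x_at type. The call for B2m was lost without any 1 SVZ culture and that for H2-K1 in 14 of 17 leave-one-out fits. None of 18 hypoxia genes passed in limma (0 at an unadjusted p under 0.05), but the mean of the list was 8.59 in line 92, 7.22 in line 49 and 6.36 to 6.51 in the other 6. Slc2a1, a glucose transporter, read 8.78 in line 92. Cholesterol synthesis had 1 of 16 members lower, Dhcr7 (0.75 ± 0.19, adjusted p = 0.0292, lost without SVZ replicate 1 or 2). Of BMP and Id genes, Id2 alone of 21 rose (0.98 ± 0.21, adjusted p = 0.0109, lost without SVZ replicate 2). Of 15 fibroblast genes, Twist1 alone passed, at least 0.31 below SVZ NSC (adjusted p = 0.0415). The Twist1 call was lost in 9 of 17 leave-one-out fits, 2 of them without an SVZ culture, and after each array was centred on its median. For the lists in this paragraph with 1 member called, that count is near the 5.85% called over all genes.

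In the 13 genes in which all 3 comparisons passed, hindbrain NSC lay between SVZ NSC and the lines. Epb41l4a, a cytoskeletal protein of the band 4.1 family, read 8.03 to 8.26 in SVZ NSC, 5.02 to 6.29 in hindbrain NSC and 2.69 to 3.46 in the lines, with no overlap of hindbrain NSC with either other group. Its fall of 5.09 ± 0.28 (adjusted p = 5.75e-09) held 2.53 between the normal regions and 2.56 between hindbrain NSC and the lines. Pcp4l1 fell by 4.01 ± 0.35 (adjusted p = 4.26e-06) and Anxa3, an annexin, by 5.89 ± 0.77 (adjusted p = 2.47e-04), although Anxa3 kept this placement in 2 of 17 leave-one-out fits. Gria4, a subunit of AMPA glutamate receptors, rose by 3.15 ± 0.36 (adjusted p = 9.49e-05), from 5.19 to 5.74 in SVZ NSC through 6.29 to 8.33 in hindbrain NSC to 7.96 to 9.09 in the lines, and Hlx, a homeobox gene, by 2.79 ± 0.33 (adjusted p = 9.49e-05). Gria4 and Hlx kept this placement in 10 and 4 of the 17. With the mean of all probe sets Gria4 did not differ between hindbrain and SVZ NSC. The 5 genes in which the lines lay between the regions were Irx3, Irx5, Lhx2, the adaptor gene Nck2 and Wscd1, the last chosen after its values were seen. Nck2 kept this placement in 3 of 17 leave-one-out fits, lost its call against SVZ NSC in 9, the 3 without an SVZ culture among them, and lost its regional difference with the replicate block (adjusted p = 0.0605). A further 22 genes differed between the normal regions and not between lines and SVZ NSC. Ecrg4, a secreted peptide precursor, read 4.66 to 9.03 in hindbrain NSC, 2.52 to 2.93 in SVZ NSC and 2.83 to 4.09 in the lines, which lay below hindbrain NSC by 3.43 (adjusted p = 7.76e-04). Spata13, a guanine nucleotide exchange factor, read 3.30 to 5.38 in hindbrain NSC, 5.94 to 6.40 in SVZ NSC and 5.55 to 6.69 in the lines. With the replicate block the regional difference passed for neither Ecrg4 (adjusted p = 0.0788) nor Spata13 (adjusted p = 0.0846).

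Other tumour samples, whose means enter none of these comparisons, were set beside the lines. Of the 598 tumour-line genes, tumour 27 lay nearer the lines than hindbrain NSC for 373 (62.4%), tumour B for 353 (59.0%) and the mean of the tissues for 366 (61.2%). Of the 59 regional genes, tumour 27 lay nearer the lines than SVZ NSC for 44, tumour B for 43 and the tissue mean for 35. The p53 het cultures were in the same fit as the lines and share its estimate of spread, and the tissues come from the same tumours as the lines.

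In 7 of the 8 lines at least 1 chromosome was raised as a whole, some shared between lines and some seen in a single line. Medians were taken over the brighter 9097 genes by chromosome, relative to the mean of the 11 cultures. Chromosome 6 stood at 0.36, 0.38 and 0.35 in lines 91, 92 and 9 and at -0.22 to -0.08 in the other 5 lines. Chromosome 11 stood at 0.37 in line 74 and 0.34 in line 77, chromosome 17 at 0.47 in line 91, chromosome 8 at 0.37 in line 83, and chromosomes 1 and 15 at 0.41 and 0.37 in line 49. The highest median of line 68 was 0.12, on chromosome 1. The SD over the lines was 0.16 to 0.27 on chromosomes 1, 6, 8, 11, 15 and 17, against 0.03 to 0.05 on the others. No SVZ culture had a median above 0.1 on any chromosome. DNA copy number was not analysed here.

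On those 6 chromosomes the mean of the lines differed from SVZ NSC by -0.03 to 0.13, and none passed an exact two-sided permutation test of 8 against 3 arrays (adjusted p of 0.737 to 0.927 over 20 chromosomes). On chromosomes 2, 4, 5, 7, 10 and 19 the lines lay lower by 0.07 to 0.11, each at an exact permutation p = 0.00606, the smallest this design can give (adjusted p = 0.0202). With all genes in place of the brighter 9097, none of the 20 chromosomes passed (0 at an unadjusted p under 0.05). Among the brighter genes that differed between lines and SVZ NSC, 27 of 38 on chromosome 1, 24 of 35 on chromosome 6, 25 of 39 on chromosome 11, 13 of 27 on chromosome 15, 17 of 43 on chromosome 8 and 9 of 25 on chromosome 17 were higher in the lines. Over all genes, dim ones included, 376 of 1064 were higher. With limma refitted on the brighter genes alone, 304 were higher and 562 lower. These chromosomes were picked because they were raised in some lines.

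**Figure D5:**
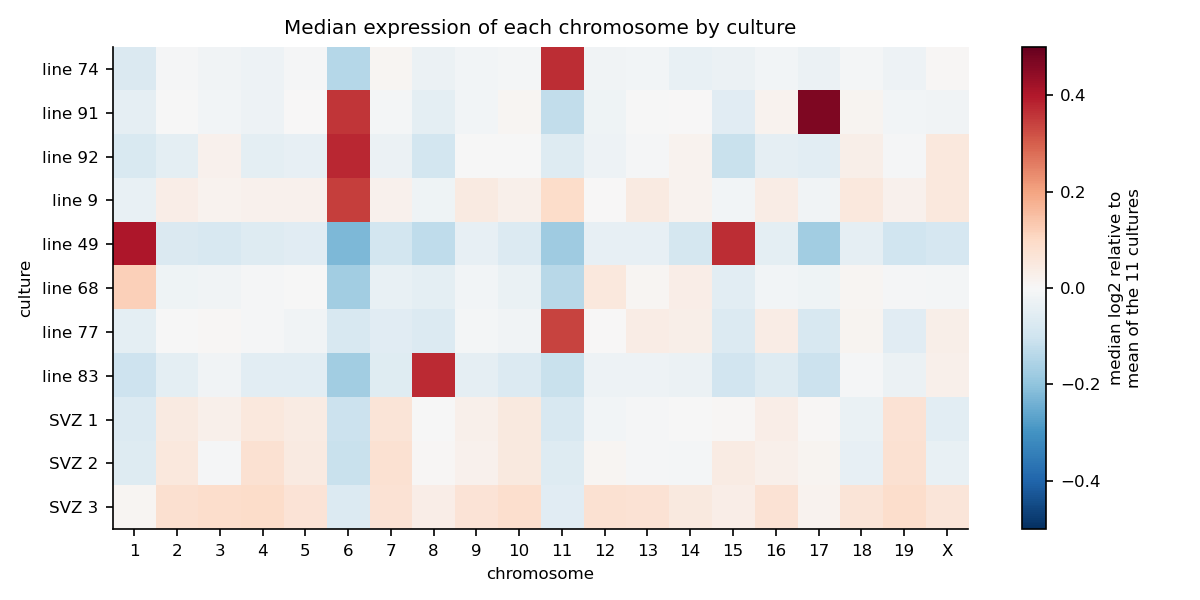
Median log2 expression of the brighter 9097 genes on each chromosome (horizontal) in the 8 lines and 3 SVZ cultures (vertical), relative to the mean of the 11 cultures, with red above and blue below that mean. Raised chromosomes differ by line, such as chromosome 17 in line 91 (0.47), chromosome 8 in line 83 (0.37) and chromosome 6 in lines 91, 92 and 9 (0.35 to 0.38), and the SVZ cultures show none.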

How the data were processed

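Total RNA was measured on 31 Affymetrix arrays. The authors deposited 1 log2 intensity per probe set and array, made with RMA per the submitters' processing notes. Neither the version of RMA nor a build is stated there. RMA forces all arrays to one distribution, so only changes relative to the other genes are seen. Values were used as deposited.

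Of 45101 probe sets, 34958 carried 1 symbol (34754 matched a mouse gene table through Entrez identifiers, 0 symbols changed), 932 several and 9211 none or were not listed. Per gene the probe set brightest on average over the 31 arrays was kept (18194 genes, 9012 with several probe sets). Probe sets of 1 gene can disagree.

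The 19 cultures (technical replicates of tumours 27 and B averaged) shared a fit in limma 3.58.1 (R 4.3.3, lmFit and eBayes, 14 residual degrees of freedom), two-sided, with Benjamini-Hochberg adjustment over all genes, a threshold of 0.05 and no minimum fold or filter. The 311 regional axis genes came from a fit of the 9 NSC arrays alone. This fit has no replicate block, and the block is an alternative that was fitted on the same 9 arrays. SVZ NSC varied together with hindbrain NSC of the same number: residual correlations between SVZ and IV ventricle cultures were 0.25 to 0.32, and between SVZ and cerebellar cultures 0.18 to 0.34. Those between IV ventricle and cerebellar cultures of the same number, which are averaged here, were -0.14 to 0.38, while IV ventricle replicate 2 and cerebellar replicate 3 correlated at 0.36. The labels do not say what cultures of the same number share. Nothing says that a line was cultured more than 1 time, so p-values measure the spread between tumours and between cultures.

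The members, the 27 gene lists (besides sex-linked genes) and the rule for naming genes were chosen with earlier results of these data known. The rule takes Ptch1 and Trp53, the 6 largest differences in each direction among regional and tumour-line genes and 3 among the smaller kinds (groups not overlapping, predicted symbols left out), up to 3 and 2 called members of each list, and 3 genes in each direction that differed between regions only. Sox2, Vim, Atoh1, Gli1, Mki67, Gbx2, Mitf, Fzd8, Gsx1, Ntrk3, Irx4 and Irx6 are genes printed outside this rule. Alternatives were array scalings, dim genes left out, probe set averaging, a trended prior, a 2-fold minimum, fits with fewer or more arrays, date marks, the replicate block and leaving out each culture. The pipeline was tested on simulated data. Figures and counts used Python 3.11.15, numpy 2.4.6, pandas 2.3.3 and matplotlib 3.10.9.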

Additional observations from a re-analysis of the deposited data

Results flagged for a closer look

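The highest or lowest of the 8 lines stood far from the other 7, by Dixon's test at the 95% level, in 11 of 84 named genes that differed and in the share of regional genes on the hindbrain side. Chance flags about 1 in 20 groups. Line 49 was the far line in 7 of these 12. It was low in the share of genes on the hindbrain side (53.05%), in Sparcl1 (5.884), in Casp12 (5.683) and in H2-K1 (3.844), and high in Dll1 (7.141), Nr2e1 (3.706) and Slc12a7 (4.813). In Sparcl1, Nr2e1, Slc12a7, Casp12 and Dll1 it lay on the side of SVZ NSC. Line 77 was high in Otx2 (4.204), Znrf3 (5.909) and Ifit2 (7.371) and low in Ccne1 (5.636). Line 68 was low in S100b (5.444).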

How the results depend on the processing

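Among 84 named genes that differed between lines and SVZ NSC, no difference changed sign in any setting, and 52 kept their call in all 17 leave-one-out fits. Sizes moved with the setting in some genes. The smallest difference over all settings was -5.36 for Aldh1l1, -2.73 for Rfx4, -1.17 for Six3, 1.09 for Hoxa3 and 0.97 for Edil3. That of Epb41l4a stayed between -5.21 and -4.96. Leaving out an SVZ culture cost most: 28, 32 and 20 of the 84 calls were lost without SVZ replicate 1, 2 and 3. Over the leave-one-out fits the genes that differed numbered 323 to 1293 (lines and SVZ NSC), 35 to 135 (hindbrain and SVZ NSC) and 1060 to 1896 (lines and hindbrain NSC), with 25 to 87 regional and 217 to 743 tumour-line genes. The lowest counts came without SVZ replicate 2, except 1060, which came without IV ventricle replicate 2, and 399 genes differed between lines and SVZ NSC without SVZ replicate 1. The highest of each came without line 49.

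With the replicate block in the comparison of hindbrain with SVZ NSC, fitted on the NSC arrays alone, 435 genes differed and 139 were regional. Of the named genes Ngfr and Gli2 then lost and Elavl3, Fzd5, Fzd9 and Nsg2 gained the regional placement. Edil3 came to pass in all 3 comparisons, and Nck2 lost its place between the regions. With only the arrays of each comparison in the fit, hindbrain and SVZ NSC differed in 311 genes (90 regional), with the tissues added in 196 (105 regional), and over the brighter 9097 genes in 55 (29 regional). A tested 2-fold minimum left 27 genes between lines and SVZ NSC, 10 between hindbrain and SVZ NSC and 15 between lines and hindbrain NSC, with 8 regional and 5 tumour-line genes. With the mean of all probe sets per gene, 51 genes were regional and 579 tumour-line genes. Of the 84 named calls 80 held there, and Ptch1, Ngfr, Aen and H2-K1 lost theirs. The difference between hindbrain and SVZ NSC was lost there for Clic5, Vcan, Emp1, Slc12a7, Mycn, Ngfr and Gria4.

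With the date mark as a random block, 557 genes differed between lines and SVZ NSC and 820 between lines and hindbrain NSC (286 tumour-line genes). With the lines of the first mark alone, hindbrain and SVZ NSC differed in 200 genes, with 106 regional and 1010 tumour-line genes, and 79 of 84 named calls held. With those of the second, lines differed from SVZ NSC in 708 and from hindbrain NSC in 1003 genes (368 tumour-line genes), and 59 of 84 held. With IV ventricle NSC alone as hindbrain the counts were 37 (hindbrain and SVZ NSC), 593 (lines and hindbrain NSC), 31 regional and 351 tumour-line; with cerebellar NSC alone, 49, 673 and 345 tumour-line. Of the 6 chromosomes that passed, 0 did with all genes. The settings differ in the number of arrays or genes, among other things, and the causes of these shifts were not tested. The signal over background limits genes near 1.67 or below.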

Other observations

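Of tumour-line genes that fell, the tissue mean lay nearer the lines than hindbrain NSC for 290 of 419 (69.2%), and of those that rose for 76 of 179 (42.5%). The corresponding shares in tumour 27 were 66.1% and 53.6%, and in tumour B 62.5% and 50.8%. St3gal6 was of the second kind, low in tissue at 4.28 on average and high in all tumour cultures. Aqp4 and Bex2 went the other way, with tissue means of 7.79 and 9.20 against 1.83 and 4.70 in the lines. Col9a1 read 11.1 in both p53 het cultures, 4.79 ± 0.89 (SD, n = 8) in the lines and 2.54 ± 0.18 (SD, n = 3) in SVZ NSC, and Emp1 read 7.04 and 6.56 in tumours 27 and B, above every line and every NSC culture.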
